A study of Mus musculus with 4 samples.

Results

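The cells described here were the colon lamina propria cells with the highest combined signal for Cd209a, Klrd1, Clec10a and Olfm1. They were chosen by measured values: each cell barcode was scored by summing ln(1 + CP10k) over these 4 genes, where CP10k is the number of transcript molecules (unique molecular identifiers, UMIs) per 10000 UMIs of that barcode, and the top 10% of the kept barcodes of all mice together were taken. Of 6954 barcodes, 4543 were kept because they held at least 1000 UMIs and at least 317 genes, had at most 7% mitochondrial UMIs and had under 20% immunoglobulin UMIs. The score selected 454 of the 4543, which are called score-high cells below. The other 4089 are called the other kept cells.

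The cells came from male C57/Bl6N mice that were gavaged on 5 days a week for about 6 months. The 2 DEP mice (DEP 11 and DEP 13) received 12 ug diesel exhaust particles (DEP) in 200 uL phosphate-buffered saline (PBS), and the 2 PBS mice (PBS 2 and PBS 3) received PBS alone. No allele or further agent is given in the labels, nor the age of the mice. Cells of each mouse were sorted for CD11b together with Ly6C or CD64 and loaded as a separate 3' single-cell library. The gate was set for monocytes and macrophages, so that conventional dendritic cells, which usually lack CD64 and Ly6C, could enter it only in part.

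Monocytes enter the colon wall continuously, and there they lose Ly6C and Ccr2, gain MHC class II and turn into macrophages that clear dying cells and microbes. Dendritic cells arise from a separate precursor that depends on the receptor Flt3, carry the transcription factor Zbtb46, and take antigen to T cells. Monocyte-derived cells of inflamed tissue can take on dendritic features, and Cd209a, a mouse relative of human DC-SIGN, and Clec10a, a galactose-binding lectin also called Mgl1, are found on some dendritic cells as well as on some macrophages. Klrd1 encodes CD94, a receptor chain best known from natural killer (NK) cells, and Olfm1 a secreted olfactomedin protein.

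The score-high cells numbered 129 of 1167 kept cells in DEP 11, 70 of 635 in DEP 13, 119 of 1236 in PBS 2 and 136 of 1505 in PBS 3. DEP 13 held the fewest score-high cells and also the fewest kept cells. Summed over the score-high cells, the 4 libraries held 715902, 369793, 844818 and 733096 UMIs. The median depth of a score-high cell was 5703, 5537.5, 6728 and 5042 UMIs, and that of the other kept cells 5317, 5930, 7321 and 5425 UMIs. The barcodes in the deposited table are serial codes, so barcodes that the libraries have in common could not be counted. Scrublet marked 7 score-high cells as doublets, of which 5 were in DEP 13, and 17 score-high cells (4, 4, 3 and 6) carried lymphocyte transcripts.

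Score-high cells made up 11.05% of the kept cells of DEP 11, 11.02% of those of DEP 13, 9.63% of those of PBS 2 and 9.04% of those of PBS 3. Exact (Clopper-Pearson) 95% intervals were 9.31 to 12.99% for DEP 11 and 8.69 to 13.7% for DEP 13, and for PBS 2 and PBS 3 they were 8.04 to 11.4% and 7.64 to 10.6%. The intervals of the 4 mice overlapped, although both DEP values lay above both PBS values. The mean was 11.04% ± 0.0215 (SD, n = 2) upon DEP and 9.33% ± 0.418 (SD, n = 2) with PBS, a difference of 1.71 percentage points (two-sided exact permutation p = 0.333, the smallest that 2 against 2 mice allow). When every barcode was first thinned to 1000 UMIs, the shares were 11.1%, 8.66%, 9.14% and 10.4%, so the groups overlapped and the difference was 0.147 percentage points.

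**Figure D1:**
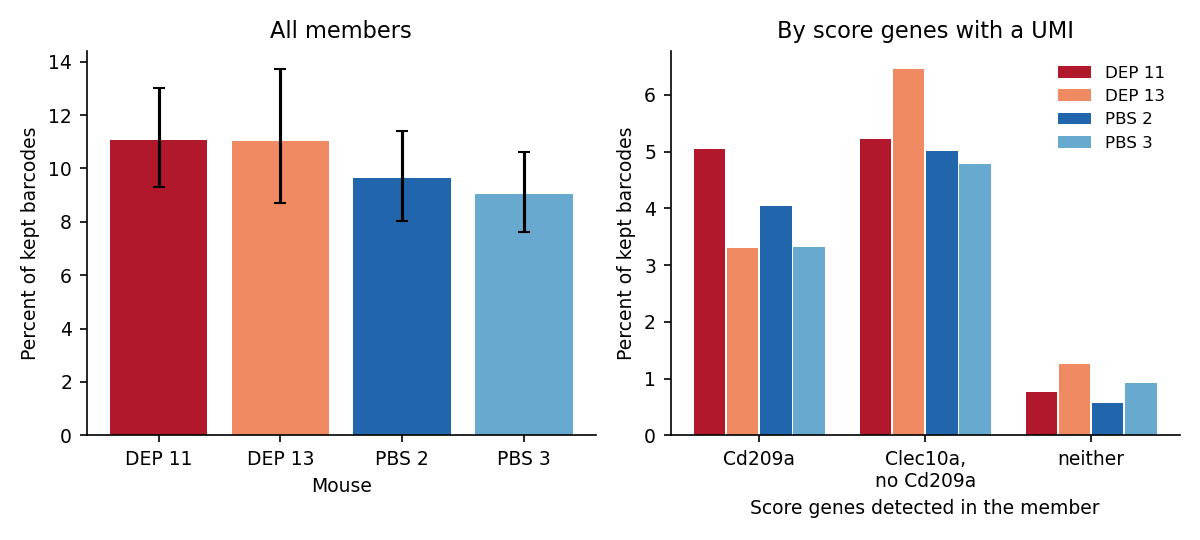
Left, bars give the percentage of kept barcodes that were score-high in each mouse, with 95% exact binomial intervals that cover counting error only; right, the same percentage split by the score genes detected. The 4 intervals overlap on the left, and Cd209a-positive cells made up 5.06% of the kept cells in DEP 11 and 3.31% in DEP 13, with both PBS mice in between.

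The score was a sparse measure. The lowest score inside was 1.5753 and the highest outside 1.5741, with 45 score-high cells less than 0.1 above the limit and 55 other cells less than 0.1 below it. The median score was 2.18 and the highest 8.83. A single UMI of the 4 genes put 57 cells into the group (median depth 1913 UMIs), 125 had 2 such UMIs, the median was 3, and 54 had 10 or more. The limit therefore did not mark a gap, and shallow cells entered with less evidence than deep cells. After thinning to 1000 UMIs, 382 of the 454 highest barcodes rested on 1 UMI, and 242 (53.3%) were the same barcodes as before.

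Clec10a (chromosome 11, 70156197 to 70170834, mm10) was the score gene found most often, in 342 score-high cells (75.3%). Cd209a (chromosome 8, 3743397 to 3748984) was found in 180 (39.6%), Olfm1 (chromosome 2, 28192992 to 28230736) in 177 (39.0%) and Klrd1 (chromosome 6, 129591782 to 129598775) in 97 (21.4%). The corresponding shares in the other kept cells were 16.6%, 3.595%, 8.14% and 2.18%. Cd209a was concentrated in fewer cells, with at least 5 UMIs in 64 of them and up to 50 in a cell, whereas Olfm1 never exceeded 5 UMIs. Only 106 of the 454 cells carried both Cd209a and Clec10a, and 12 carried all 4 genes.

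**Figure D2:**
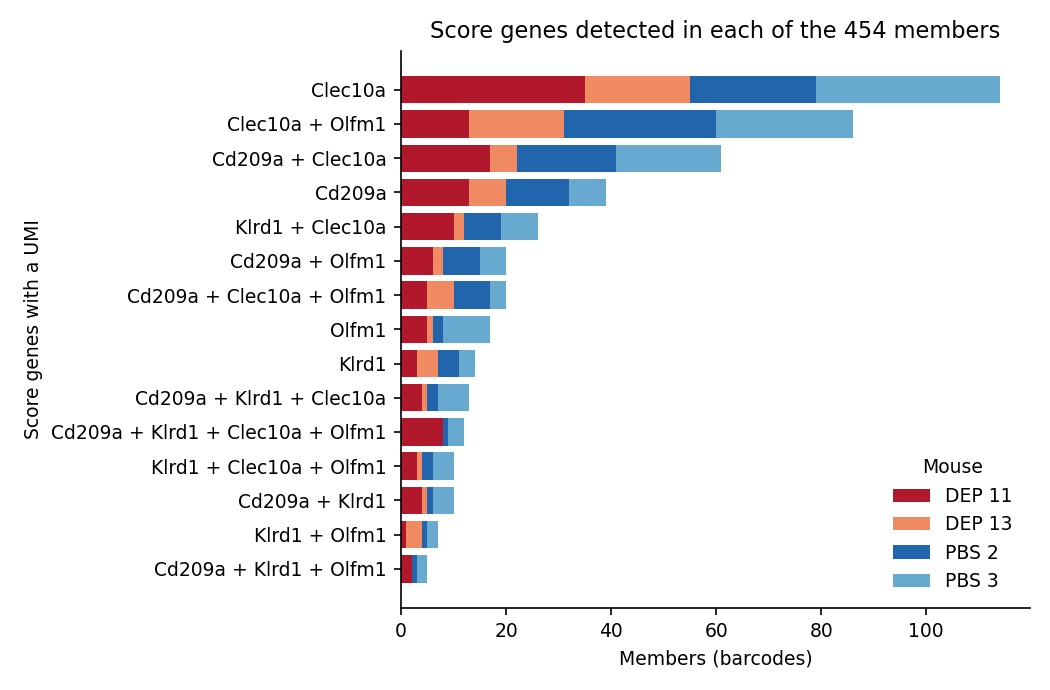
Each bar is the number of score-high cells with UMIs for the named score genes and for no other score gene, coloured by mouse. The most frequent pattern was Clec10a alone, and every pattern with more than 10 cells drew cells from each of the 4 mice except Cd209a + Klrd1 + Clec10a + Olfm1, which had no cell of DEP 13.

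To judge free RNA, the 84 barcodes with at least 20% immunoglobulin UMIs (plasma cells by that measure, median 20191 UMIs) served as cells that should lack myeloid genes. With every barcode thinned to 1000 UMIs, Cd209a was seen in 16.5% of score-high cells, 2.38% of these immunoglobulin-rich barcodes and 0.391% of the other kept cells. Clec10a was seen in 30.8%, 7.14% and 2.71%. Without thinning the score-high and immunoglobulin-rich shares were 39.6% and 17.9% for Cd209a and 75.3% and 28.6% for Clec10a. Both shares were highest in the score-high cells, which the score required, so they cannot show how much of these genes was free RNA. With thinning, C1qa was seen in 70.9%, 73.8% and 84.0% and Flt3 in 1.76%, 1.19% and 0.44%. Shares of score-high cells with a C1qa or Flt3 UMI are therefore not interpreted here. Levels as CPM, counts per 1e6 of the summed UMIs, are given for these genes below. In the immunoglobulin-rich barcodes C1qa was at 1358 CPM, Apoe at 9231 CPM, Cd209a at 56.3 CPM and Flt3 at 1.82 CPM. Plasma cell transcripts are part of the total there, which lowers the CPM and the thinned share of every other gene, so these levels are no measure of free RNA in the score-high cells.

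The label of these cells, dendritic-like Cd209a+ Clec10a+ Ccr2+ cells, was checked against all 5 label markers and against marker lists. Ratios are log2 of score-high over other kept cells within a mouse, with 10 CPM added to both, and they carry no test because the same cells were chosen by these genes. Over 4637 genes measured in at least 10% of either set, 809 (17.4%) were higher in the score-high cells of each mouse and 653 (14.1%) were lower. The median ratio of all genes was 0.01. A gene below 10% in 1 set entered through the other, which favoured a ratio towards that set, so counts and medians over measured genes describe those genes alone.

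Cd209a was at 427, 360, 387 and 319 CPM in the score-high cells of DEP 11, DEP 13, PBS 2 and PBS 3 and at 6.97, 4.18, 6.95 and 4.41 CPM in the other kept cells. Clec10a was at 390, 338, 282 and 355 CPM against 32.6, 23.1, 31.4 and 30.6 CPM. Mean log2 ratios were 4.61 ± 0.10 (SD over 4 mice) for Cd209a, 3.15 ± 0.24 for Clec10a, 2.64 ± 0.73 for Klrd1 and 2.01 ± 0.20 for Olfm1, which restates the choice of cells. Ear2, a ribonuclease of the eosinophil-associated family and a label marker outside the score, was at 65.7, 18.9, 71.0 and 151 CPM against 18.2, 16.4, 11.7 and 36.4 CPM (log2 ratio 1.31 ± 0.82). In DEP 13 the Ear2 ratio was 0.13, and in the monocyte-scored cells described below Ear2 was higher than in the score-high cells on average, so Ear2 did not mark them in every mouse.

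Ccr2, the receptor that brings monocytes into tissue, was at 763, 827, 723 and 682 CPM in the score-high cells and at 486, 392, 430 and 431 CPM in the other kept cells. The 2 sets did not overlap, and the mean log2 ratio was 0.77 ± 0.20. Ccr2 is not a score gene. UMIs for it were found in 85.0% of score-high and 74.0% of other kept cells, and in 75.0% of the deeper immunoglobulin-rich barcodes. With each barcode thinned to 1000 UMIs, Ccr2 was seen in 49.1%, 33.3% and 11.9%. The share in the other kept cells was thus above that of the immunoglobulin-rich barcodes with thinning only, and Ccr2 is described here by its CPM.

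Of the 11 dendritic core genes 6 were measured. Kmo and Dpp4 were higher in each mouse and Itgax and Jaml lower, but Kmo (11.2% against 4.87% of cells) and Dpp4 (10.8% against 4.82%) reached the limit for measured genes only in the score-high cells, which favoured a positive ratio. Kmo, an enzyme of tryptophan breakdown, had a ratio of 0.85 ± 0.27 and Dpp4, the peptidase CD26, of 0.74 ± 0.13. Itgax, which encodes CD11c, had a ratio of -0.58 ± 0.31 and Jaml, an adhesion molecule, of -0.48 ± 0.23. Flt3 was at 27.9, 13.5, 14.2 and 8.18 CPM in the score-high cells against 4.70, 1.95, 2.35 and 1.22 CPM, higher in each mouse but with UMIs in only 7.71% of the cells. Zbtb46 was at 9.78, 0, 1.18 and 0 CPM, against 0.32, 0, 0 and 0 CPM in the other kept cells. It had UMIs in 1.54% of score-high and 0.0489% of other kept cells. A count of 0 in the score-high cells allowed up to 8.11 CPM in DEP 13 and 4.09 CPM in PBS 3.

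Of 11 genes of type 2 conventional dendritic cells (cDC2) 4 were measured. Of these 3 were higher in each mouse and none was lower, with a median of 0.66. Mgl2 (chromosome 11, 70130329 to 70137550), the close relative that neighbours Clec10a, was at 461, 511, 316 and 458 CPM against 159, 137, 129 and 179 CPM, a ratio of 1.46 ± 0.27 and the highest among measured genes that are no label markers. Tnip3, an inhibitor of NF-kB signalling, had a ratio of 1.002 ± 0.60 and Klf4, a transcription factor needed by a branch of cDC2, of 0.32 ± 0.19. Below the limit for measured genes, Cd7 (1.34 ± 0.63, in 4.19% of cells), Cd24a (0.83 ± 0.19) and Irf4 (0.50 ± 0.14) had positive means. The other list genes below the limit are not given, so these do not stand for the list. Of the cDC1 genes, 4 of 6 measured were higher in each mouse (Naaa, Wdfy4, Batf3 and Ifi205) and 2 were lower (Irf8 and Cadm1), while the defining Xcr1 and Clec9a had UMIs in 0.44% and 1.32% of score-high cells. Plasmacytoid and migratory dendritic genes showed no gene that was higher in each mouse, and 2 of 3 measured migratory genes, Apol7c (-1.02 ± 0.49) and Cd83 (-0.26 ± 0.14), were lower.

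Resident macrophage genes were lower than in the other kept cells. Of 9 measured resident macrophage genes none was higher in each mouse and 8 were lower, with a median of -0.85. Summed over the list, the score-high cells held 22447, 23059, 31110 and 25795 CPM against 48003, 43798, 50498 and 41435 CPM in the other kept cells. C1qa, a chain of complement C1q, was at 2425, 2361, 3178 and 2534 CPM against 4842, 4242, 4839 and 4011 CPM, and Apoe, an apolipoprotein of lipid export, at 13551, 14284, 19966 and 16260 CPM against 30953, 27952, 33451 and 26304 CPM. Mrc1, the mannose receptor, was the exception of the list with a ratio of 0.08 ± 0.11. Csf1r, the growth factor receptor of macrophages, had a ratio of -0.34 ± 0.18 and Fcgr1, which encodes the CD64 of the gate, of -0.09 ± 0.15. Fcgr1 UMIs were found in 57.5% of score-high cells and 63.1% of the deeper immunoglobulin-rich barcodes. With each barcode thinned to 1000 UMIs, these shares were 18.1% and 5.95%, and 19.2% in the other kept cells. The order thus depended on depth, and Fcgr1 is described here by its ratio. Itgax and Jaml were lower and Flt3 was higher in each mouse, while Zbtb46 had UMIs in few cells and none in 2 mice. The dendritic part of the label was therefore not settled by these genes. The cells are named here by the rule that chose them.

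Of 9 measured monocyte genes, 5 were higher in each mouse and 2 were lower, with a median of 0.23. F13a1 (0.54 ± 0.15), Ms4a4c (0.52 ± 0.20) and Plac8 (0.49 ± 0.19) had the highest ratios and Chil3 (-0.71 ± 0.16) the lowest. The monocyte list summed to 2608 to 3031 CPM in the score-high cells of the 4 mice, 2138 to 2563 CPM in the other kept cells and 11534 to 12329 CPM in the monocyte-scored cells. The list shares genes with the score that chose the monocyte-scored cells, so the distance to them was set by that choice.

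Beyond the label markers, the genes with the highest ratios belonged to several kinds. Klrk1, which encodes NKG2D and lies next to Klrd1 on chromosome 6, was at 58.7, 32.5, 24.9 and 40.9 CPM against 20.1, 8.92, 11.8 and 11.4 CPM (1.07 ± 0.26). Lsp1, an actin-binding protein of leukocytes, was at 662, 535, 626 and 687 CPM against 335, 277, 343 and 330 CPM (0.94 ± 0.08), so its ratio was the most alike across mice among the 40 genes named by the rule. Bhlhe40, a transcription repressor (0.90 ± 0.13), the cytoskeletal adapter Eps8 (0.89 ± 0.13), the corepressor Cbfa2t3 (0.88 ± 0.23), the receptor Pira2 (0.85 ± 0.34), the integrin chain Itgb7 (0.84 ± 0.30), the protease Napsa (0.82 ± 0.16) and the lipid amidase Naaa (0.78 ± 0.27) followed. Trappc5, Lilra6, Lsr, H2afy, Traf1 and 1700025G04Rik had ratios between 0.72 and 0.93. Klrk1 (15.2% against 6.70% of cells), Lilra6 and Lsr reached the limit for measured genes only in the score-high cells, as did Ear2, and their positive ratios were favoured by it.

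The 15 lowest genes were led by H2-M2, a nonclassical MHC class I gene, at 76.8, 24.3, 9.47 and 46.4 CPM against 337, 247, 125 and 198 CPM (-2.40 ± 0.53). Zmynd15 (-1.69 ± 0.71), the collagenase Mmp13 (-1.69 ± 0.43) and the neutrophil attractant Cxcl1 (-1.65 ± 0.55) came next. Olfml3, Lag3, Lilra5, Acp5, Cd4, Pmepa1, Dnase1l3, Hpgds, Pxdc1, Ms4a7 and the tetraspanin Cd63 had ratios between -1.54 and -1.22. All 15 were lower in the score-high cells of each mouse, as the rule for naming them required. Cxcl1, Lag3, Lilra5 and Cd4 reached the limit for measured genes only in the other kept cells.

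**Figure D3:**
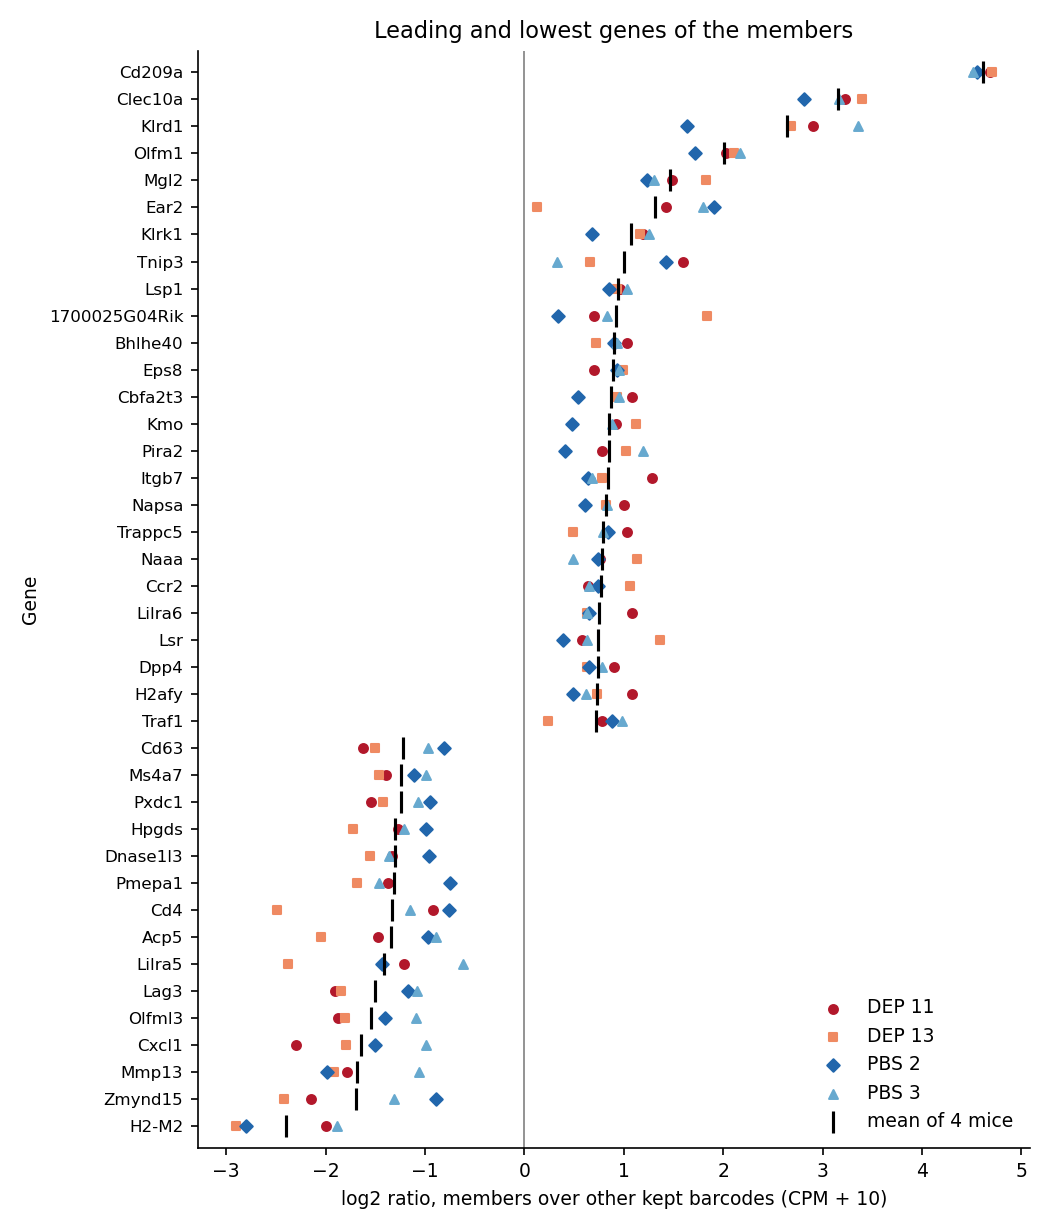
The x axis gives the log2 ratio of score-high over other kept cells (CPM + 10) in each mouse for the 40 named genes on the y axis, and the vertical tick the mean of 4 mice. Points of the 4 mice lie on the same side of 0 for every gene shown, as the rule for naming them required. The Ear2 value of DEP 13 (0.13) is closest to 0.

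These ratios depended on the cells they were set against. As references, the top 10% of other kept cells by a monocyte score (Ly6c2, Plac8, Ifitm6, Chil3) and by a macrophage score (C1qa, C1qb, C1qc, Mrc1) were taken, 409 cells each. Against the macrophage-scored cells all 40 named genes kept their sign. Against the monocyte-scored cells 22 of the 40 changed sign, namely all 15 low genes and Ear2, Lsp1, Cbfa2t3, Pira2, Itgb7, Napsa and Lilra6. Mgl2 differed from both references, with a ratio of 3.31 to monocyte-scored and 0.86 to macrophage-scored cells. Ccr2 was close to the monocyte-scored cells (0.13) and above the macrophage-scored cells (1.66).

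MHC class II genes were near the level of the other kept cells, although their sum was lower in each mouse. Most antigen processing genes were lower (median -0.33). Of 10 measured MHC class II genes 3 were higher in each mouse and 4 were lower, and the median was 0.01. The class II list summed to 85761 to 95036 CPM in the score-high cells, 95165 to 101816 CPM in the other kept cells and 17778 to 28513 CPM in the monocyte-scored cells. H2-DMb2 (0.14 ± 0.07) and H2-Oa (0.71 ± 0.63), chains of the molecules that edit or restrain peptide loading, were among the higher, and H2-Eb1 (-0.13 ± 0.05) and Cd74 (-0.13 ± 0.06), the invariant chain, among the lower. Of 9 antigen processing genes Ifi30 (0.37 ± 0.03), a lysosomal thiol reductase, and Cst3 (0.36 ± 0.29), an inhibitor of cathepsins, were higher in each mouse, and the other 7 were lower, led by Lgmn (-0.74 ± 0.15) and the cathepsin gene Ctsl (-0.71 ± 0.15).

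Among 12 measured C-type lectin genes 4 were higher in each mouse and 3 were lower. Clec4b1 (0.40 ± 0.13) and Clec12a (0.37 ± 0.20) were higher, and Clec4n, which encodes Dectin-2, was lower (-0.82 ± 0.36). The neighbours of Cd209a had UMIs in too few cells to count as measured, and their mean ratios were 1.98 ± 0.79 for Cd209d (37.1 against 0.753 CPM), 0.77 ± 0.52 for Cd209b and 0.57 ± 0.58 for Cd209e. Genes of the Cd209 family, Clec10a and Mgl2, and the Ear genes are copies of each other, and how reads that fit more than 1 copy were divided was not tested, so the split within each family is uncertain.

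Of 13 measured chemokine genes, Ccl9 (0.47 ± 0.14) and Ccl6 (0.42 ± 0.12) were higher in each mouse and 5 were lower, among them Cxcl1, Cxcl2 (-1.10 ± 0.30), Ccl12 (-0.75 ± 0.46) and Cxcl16 (-0.61 ± 0.13). Of 14 measured transcription factor genes 4 were higher and 4 lower. Batf3 (0.36 ± 0.05), a factor of cDC1 and of some monocyte-derived cells, was higher in each mouse, and Irf8 (-0.45 ± 0.21), a factor of monocyte and cDC1 development, was lower. The fractalkine receptor Cx3cr1, which rises as colon macrophages mature, had a ratio of -0.64 ± 0.05.

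Marker lists of other cell types were summed in the same way. Of 12 NK cell genes, Klrk1 alone was measured, Prf1, Eomes and Klra8 were at 0, and the list summed to 34.3 to 98.2 CPM against 18.003 to 26.4 CPM in the other kept cells. The T cell list summed to 49.7 to 79.6 CPM against 20.6 to 42.4 CPM. The B cell list, at 39.1 to 114 CPM against 55.9 to 90.3 CPM, and the epithelium and stroma list, at 29.7 to 125 CPM against 43.5 to 135 CPM, overlapped between the sets. The plasma cell list, most of it Jchain, which encodes the joining chain of antibodies, was at 439, 765, 395 and 1187 CPM against 550, 835, 389 and 1259 CPM, so it followed the mouse and not the set of cells. Neutrophil genes S100a8, S100a9 and Ly6g and all 7 mast cell and basophil genes were at 0, as were Epx, Il5ra and Ccr3 of eosinophils, the cells in which Ear genes are best known. Klrk1 itself, at 58.7, 32.5, 24.9 and 40.9 CPM, made up most of the NK sum of 71.2, 35.2 and 34.3 CPM in DEP 11, DEP 13 and PBS 2 but not of the 98.2 CPM in PBS 3, and Klrd1 was at 103, 75.7, 30.8 and 121 CPM. The part of NK and T cell transcripts in the Klrd1 and Klrk1 values was not tested. Leaving out the barcodes with lymphocyte transcripts, 17 of the 454 score-high cells among them, changed the sign of none of the 40 ratios. The cells were then chosen again by a score that includes Klrd1, so the sign of Klrd1 was set by that choice.

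The score-high cells were not uniform. Cells with Cd209a numbered 59, 21, 50 and 50 in DEP 11, DEP 13, PBS 2 and PBS 3 (median depth 6271 UMIs), cells with Clec10a but no Cd209a UMI 61, 41, 62 and 72 (5529 UMIs), and cells with neither 9, 8, 7 and 14 (2577.5 UMIs). Mgl2 was at 578, 682, 369 and 575 CPM in the Cd209a cells and at 351, 448, 285 and 367 CPM in the Clec10a cells without Cd209a. Within each mouse Mgl2 was higher in the former, and both were above the 129 to 179 CPM of the other kept cells.

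C1qa showed the opposite order. It was at 1990, 2195, 2726 and 2023 CPM in the Cd209a cells, 2963, 2655, 3440 and 2988 CPM in the Clec10a cells without Cd209a, and 698 to 1130 CPM in the monocyte-scored cells. Apoe was at 10018, 12799, 16027 and 10897 CPM in the Cd209a cells and 17535, 16509, 22659 and 20781 CPM in the Clec10a cells without Cd209a. In each mouse the Cd209a cells thus had the lower macrophage gene levels of the pair, between those of monocyte-scored and other kept cells. Ccr2 was also lower in the Cd209a cells of each mouse, at 667, 785, 723 and 618 CPM in the Cd209a cells and 859, 906, 740 and 703 CPM in the Clec10a cells without Cd209a.

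The Cd209a cells and the Clec10a cells without Cd209a differed in several genes. Cd209d was at 96.8, 103, 18.2 and 122 CPM there and at 0, 0, 0 and 5.13 CPM in the Clec10a cells without Cd209a. Cd7, a surface protein of lymphocytes and some dendritic cells, was at 83.7, 7.93, 26.0 and 16.5 CPM in the Cd209a cells and had no UMI in the Clec10a cells without Cd209a. Ear2 was at 88.9, 47.6, 120 and 314 CPM against 42.3, 4.93, 32.0 and 15.4 CPM, higher in the Cd209a cells of each mouse. Flt3 was at 41.8, 0, 20.8 and 9.92 CPM against 13.01, 4.93, 9.13 and 7.69 CPM, with the DEP 13 value at 0 among 21 cells. The few score-high cells with neither Cd209a nor Clec10a also held such transcripts, with Flt3 at 98.6 CPM in the 8 cells of DEP 13 and Cd7 at 98.6 CPM there and at 98.2 CPM in the 14 cells of PBS 3, above the Cd209a cells of the same mice. The T cell attractant gene Ccl17 was at 78.4, 15.9, 0 and 0 CPM in the Cd209a cells, where it rested on 1 of 59 cells in DEP 11 and 1 of 21 in DEP 13, and the PBS values of 0 rest on 50 cells each.

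The genes that led the Clec10a cells without Cd209a after pooling the mice were partly epithelial or stromal and rested on few cells. Sprr2a2 had UMIs in 16 of 236 cells, Lypd8 in 5 and Dcn in 9, while Mgl2 (128 cells) and Ccr2 (198 cells) were broad. The 38 cells with neither gene were led by Klrc1, Ccl5, Cd7 and Gimap4, each in 3 cells, and 3 of the 38 carried lymphocyte transcripts.

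**Figure D4:**
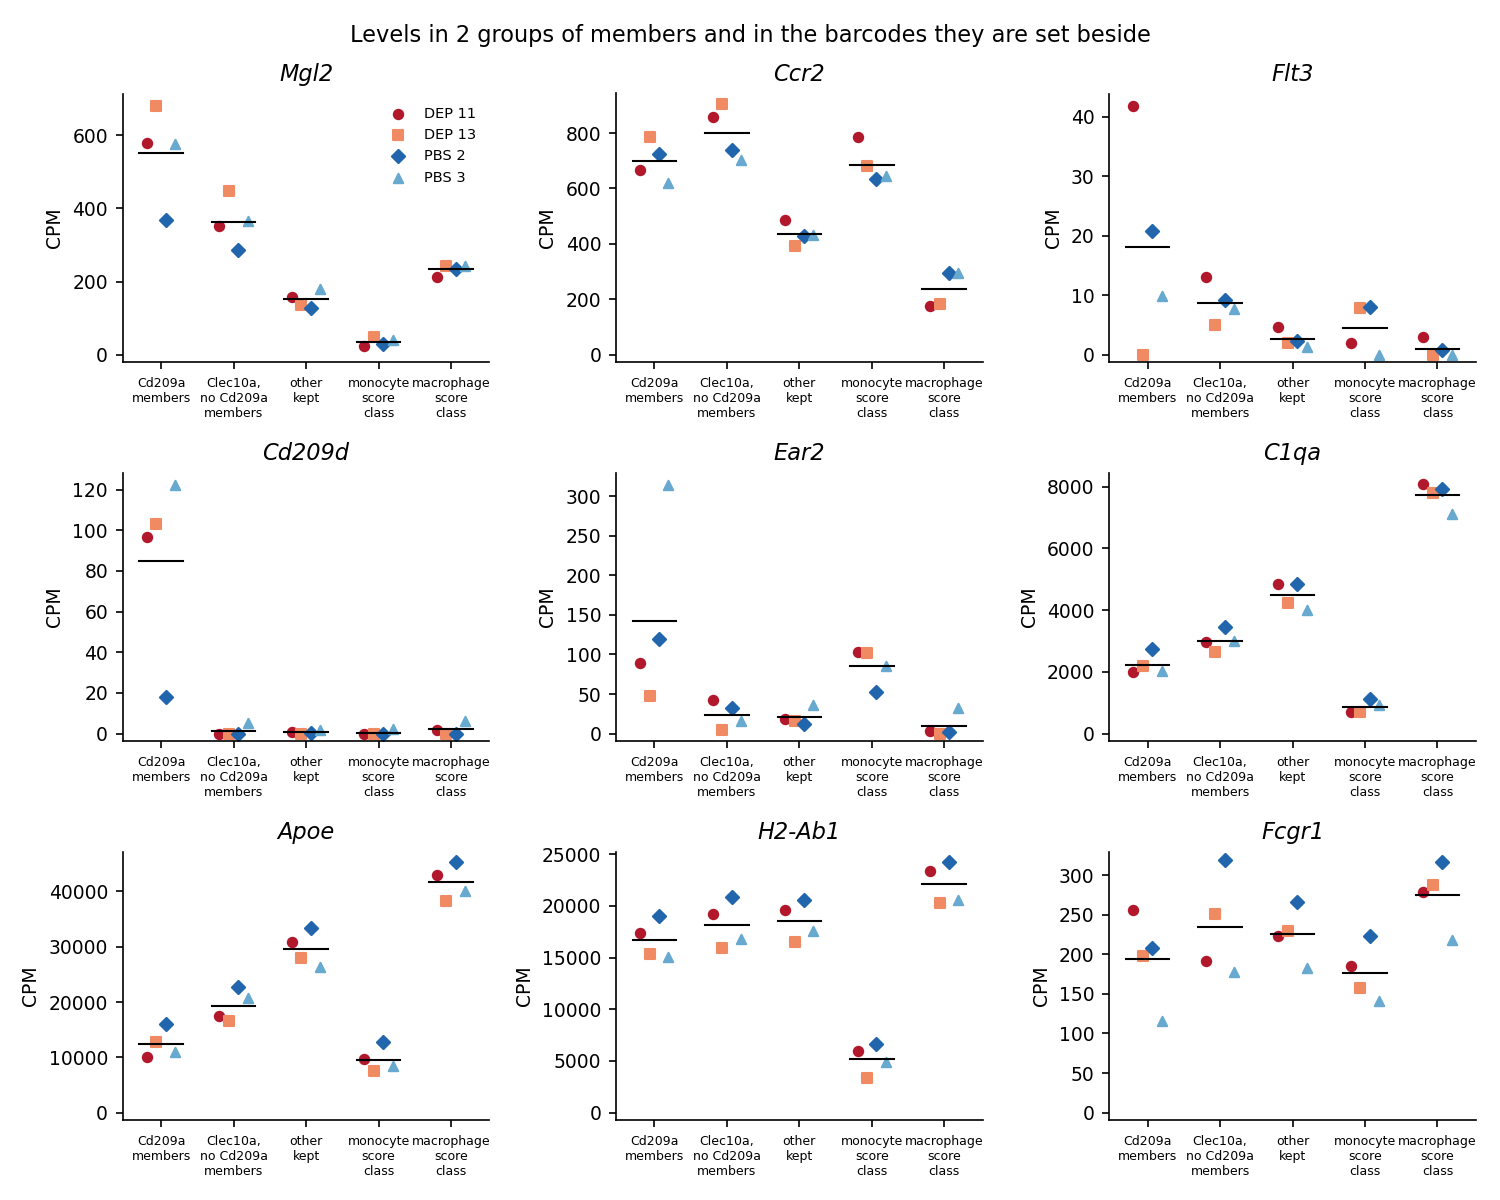
CPM per mouse (points) and the mean of 4 mice (line) for 9 genes in Cd209a cells, Clec10a cells without Cd209a, other kept cells and the monocyte-scored and macrophage-scored cells, each panel with its own linear axis. Of the 5 sets shown, the mean of Mgl2 is highest in the Cd209a cells and Cd209d is nearly confined to them, C1qa and Apoe rise from monocyte-scored over Cd209a and Clec10a cells to macrophage-scored cells, which were chosen by C1qa, and H2-Ab1 is low only in the monocyte-scored cells.

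To ask which genes changed upon oral DEP within the score-high cells, UMIs were summed per mouse and tested with edgeR's quasi-likelihood test with Benjamini-Hochberg adjustment. Of 6319 genes tested, 3 passed at 5% FDR (0.0475%), 1 higher and 2 lower upon DEP, and 230 had an unadjusted p below 0.05. These p-values measure the spread between 2 and 2 mice that were separate animals. The score did not use the exposure.

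Retnla (chromosome 16, 48842551 to 48844461), which encodes a resistin-like protein of alternatively activated macrophages, was at 5.59 and 8.11 CPM in the DEP mice and at 86.4 and 156 CPM in the PBS mice. The groups did not overlap, and it was lower upon DEP by edgeR's quasi-likelihood test (log2 fold change -4.19, SE 0.47, adjusted p 1.76e-05). UMIs were found in 4 and 3 score-high cells of the DEP mice and in 15 and 15 of the PBS mice. A single cell held 39 of the 73 UMIs in PBS 2 and another 95 of the 114 in PBS 3.

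Cxcl9 (chromosome 5, 92321347 to 92328079), an interferon-gamma-induced T cell attractant, was at 127 and 62.2 CPM upon DEP and at 15.4 and 9.55 CPM with PBS. The groups did not overlap (log2 fold change 2.95, SE 0.39, adjusted p 0.00023 by edgeR's quasi-likelihood test). It was found in 13, 3, 6 and 6 cells, and 1 cell held 48 of the 91 UMIs in DEP 11 and 1 cell 21 of the 23 in DEP 13. The share of cells with a Cxcl9 UMI was thus no higher in DEP 13 (4.29%) than in PBS 2 (5.04%) or PBS 3 (4.41%).

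Dnajb1, a co-chaperone of the heat shock response, was at 119 and 83.8 CPM upon DEP and at 290 and 513 CPM with PBS (log2 fold change -1.96, SE 0.28, adjusted p 0.000619 by edgeR's quasi-likelihood test). The groups did not overlap, and UMIs were spread over 40, 19, 70 and 86 cells. The other kept cells had a Dnajb1 change of -1.44 in their own fit, which did not pass (adjusted p 0.782).

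Of these 3 genes, Dnajb1 alone passed once the score-high cell with most UMIs of each gene was left out in each mouse (log2 fold change -2.02). Retnla and Cxcl9 then missed the threshold, Cxcl9 also missed it without called doublets (2.58, edgeR adjusted p 0.587) and was not among the genes tested with the top 5% of barcodes, and no gene passed when only the 180 Cd209a cells were summed (194 had an unadjusted edgeR p below 0.05). These alternatives were chosen after seeing the data, except those without called doublets and with the top 5%. Over every alternative in which the gene was tested, the fold change was -5.29 to -2.00 for Retnla, 2.10 to 4.44 for Cxcl9 and -2.35 to -1.40 for Dnajb1.

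The score genes chose the cells, so their levels under DEP and PBS are a description with no test: the log2 fold changes were 0.16 for Cd209a, 0.27 for Klrd1, 0.20 for Clec10a and -0.04 for Olfm1. Ear2 was at 65.7 and 18.9 CPM upon DEP and 71.0 and 151 CPM with PBS (-1.25 ± 0.38 (SE), edgeR adjusted p 0.862). Ear2 did pass under 4 of 21 alternatives, among them without DEP 11 (-2.50, edgeR adjusted p 0.0476) and without PBS 2 (-1.71, 7.38e-06), while without DEP 13 (-0.80, 1.0) and without PBS 3 (-0.56, 0.9) its fold change was smaller. Mgl2 (0.32 ± 0.23), Ccr2 (0.18 ± 0.20), C1qa (-0.25 ± 0.18) and H2-Ab1 (-0.08 ± 0.16) did not pass either. The latter 4 genes did not differ detectably between DEP and PBS mice within the score-high cells, which does not show that they were alike.

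The median fold change of all genes was 0.0003. List medians farther from it than 0.5 came from the pollutant list described next and from lists with 1 or 2 tested genes, at -1.19 for eosinophil-associated ribonucleases, -0.81 for epithelium and stroma, 0.55 for NK cells and 0.59 for neutrophils, and none of those genes passed. All 8 tested dendritic core genes had fold changes above 0 (median 0.37, and 0.26 for 6 tested in the other kept cells). They ran from Dpp4 at 0.03 to Flt3 at 0.97, and none passed. Of 10 tested cDC2 genes 9 lay above 0 (median 0.33, and -0.06 for 6 tested in the other kept cells), and none passed. Of 11 tested resident macrophage genes 9 lay below 0 (median -0.25, and 0.05 for 12 tested in the other kept cells), again with none passing. The medians of the 2 sets of cells thus cover different genes in these lists. Monocyte genes had a median of -0.11 and MHC class II genes of 0.04.

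All 6 tested genes of the aryl hydrocarbon receptor and Nrf2 list, which answer to pollutants and oxidants, lay below 0 (median -0.75, and -0.04 in the other kept cells), and none passed. Hmox1, which encodes the stress enzyme heme oxygenase, was at 83.8 and 133 CPM upon DEP and at 239 and 280 CPM with PBS (-1.30 ± 0.27, edgeR adjusted p 0.0648), so its groups did not overlap although it missed the threshold. It passed under 8 of 21 alternatives, with fold changes of -1.67 to -0.74 over all 21. In the other kept cells Hmox1 was at 113 and 195 CPM upon DEP and at 232 and 339 CPM with PBS (-0.89, edgeR adjusted p 1.0), likewise without overlap. Cyp1a1 and Cyp1b1, targets of the receptor, were at 0 in the score-high cells. Of 18 tested tissue dissociation genes, immediate-early and heat shock genes that cell isolation can switch on, 15 lay below 0, Dnajb1 alone passed, and the median was -0.39 (-0.57 in the other kept cells). Hspa1a was at 1157 and 1398 CPM upon DEP and at 2610 and 2162 CPM with PBS (-0.89 ± 0.19, edgeR adjusted p 0.0794), and it passed under 6 of 21 alternatives (-1.08 to -0.69), as did Bag3 (-2.61 to -1.27). For Dnajb1 and Hspa1a the DEP values lay below the PBS values in the other kept cells too, and with 1 library a mouse a difference between cell preparations and the exposure cannot be told apart.

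To ask whether the DEP effect in the score-high cells differed from that in the other kept cells of the same mice, the interaction was tested on 8 sums with the mouse as a block. Of 6604 genes 8 passed (0.121%), 4 with a more positive and 4 with a more negative DEP effect in the score-high cells, and 340 had an unadjusted p below 0.05. All values are from edgeR's quasi-likelihood test with Benjamini-Hochberg adjustment.

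Cxcl10, an interferon-induced chemokine that lies beside Cxcl9 on chromosome 5, had the smallest p. In the score-high cells it was at 123 and 124 CPM upon DEP and 60.4 and 42.3 CPM with PBS, and in the other kept cells at 62.9 and 51.0 CPM upon DEP and 114 and 83.8 CPM with PBS. The groups lay in opposite order in the 2 sets of cells, and the difference of the log2 effects was 2.01 (SE 0.22, edgeR adjusted p 2.42e-05). Within the score-high cells alone Cxcl10 did not pass (1.26, edgeR adjusted p 0.0957) except with the likelihood ratio test (0.0183), without a gene filter (0.0273) and without PBS 2 (0.0017). In DEP 13 a single cell held 36 of the 46 Cxcl10 UMIs.

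Isg15, a ubiquitin-like protein of the interferon response, was at 165 and 86.5 CPM upon DEP and 79.3 and 77.8 CPM with PBS in the score-high cells, and at 96.8 and 78.1 CPM against 138 and 109 CPM in the other kept cells (difference 1.24, SE 0.21, edgeR adjusted p 0.00754). The monocyte attractant Ccl7 was at 217 and 354 CPM against 218 and 220 CPM in the score-high cells and at 135 and 260 CPM against 290 and 274 CPM in the other kept cells (0.93, edgeR adjusted p 0.00477). The Ccl7 groups overlapped in the score-high cells and did not in the other kept cells. Cxcl9 (1.96, edgeR adjusted p 0.0116) was the last of the 4. Of 14 tested chemokine genes 3 passed, beside 0.121% of all tested genes, and the median difference of the chemokine list was -0.05.

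The 4 genes with a more negative DEP effect were Retnla (-2.88, edgeR adjusted p 0.00747), Cd63 (-0.71, 0.00747), Apoe (-0.37, 0.00954) and Zmynd15 (-1.33, 0.0164). Retnla was at 26.6 and 15.6 CPM upon DEP and at 53.5 and 61.2 CPM with PBS in the other kept cells, so its groups did not overlap there either (-1.41, edgeR adjusted p 0.363). Cd63 was at 286 and 341 CPM upon DEP and 443 and 480 CPM with PBS in the score-high cells, against 903 and 981 CPM and 782 and 947 CPM in the other kept cells. Apoe was at 13551 and 14284 CPM against 19966 and 16260 CPM in the score-high cells. Zmynd15 was at 47.5 and 29.7 CPM against 104 and 77.8 CPM in the score-high cells and at 202 to 245 CPM in the other kept cells of the 4 mice. Cd63, Apoe and Zmynd15 were each lower in the score-high than in the other kept cells of every mouse, and the gap was wider in the DEP mice.

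These calls depended on which cells were taken and on the tool. No gene passed when barcodes were thinned to 1000 UMIs before scoring, which kept 53.3% of the cells, although 320 genes had an unadjusted p below 0.05, and 1 passed with the top 5% of barcodes. Thinning left differences of 0.28 for Cxcl10, 0.15 for Isg15, -0.16 for Zmynd15 and -0.17 for Apoe. Ccl7 (-0.11) and Cd63 (0.04) took the opposite sign, while Retnla (-2.13) and Cxcl9 (1.76) stayed large. When the top 20% of barcodes were taken, Retnla (-0.51), Ccl7 (0.45), Isg15 (0.41), Zmynd15 (-0.44) and Cd63 (-0.34) missed the threshold with smaller differences. Cxcl10, Cxcl9 and Apoe still passed there. With DESeq2, which used the same cells, Cxcl10 alone passed, while the differences were about as large (Retnla -2.81, Zmynd15 -1.35, Ccl7 0.92, Cd63 -0.71). Without each gene's leading cell in both sets of cells, an alternative added after seeing the data, Isg15, Ccl7, Cd63 and Apoe still passed. Zmynd15 (-1.27, edgeR adjusted p 0.149) and Cxcl10 (1.64, 0.0746) missed the threshold with differences near those above, and Cxcl9 (1.07, 0.943) and Retnla (-1.26, 0.984) with smaller ones. Scoring without Klrd1 ended the calls of Ccl7 (0.26, edgeR adjusted p 0.991), Apoe (-0.36, 0.0516) and Zmynd15 (-1.18, 0.0978), and leaving out called doublets ended those of Cxcl9 (1.58, 0.0748) and Retnla (-1.89, 0.121).

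**Figure D5:**
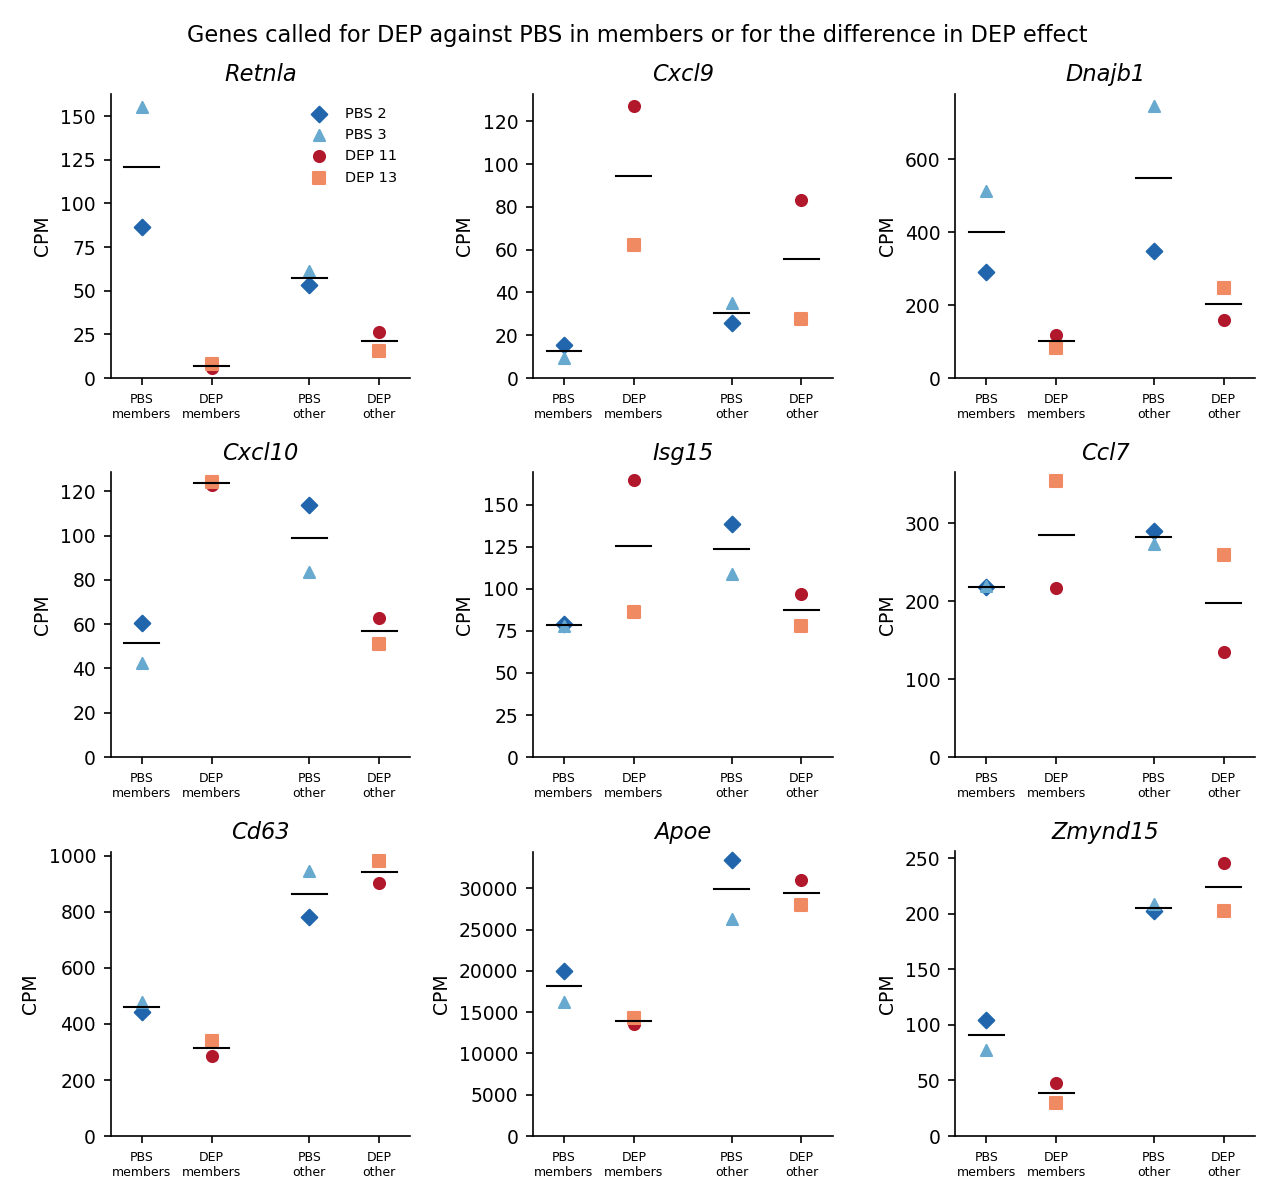
CPM of each mouse (points) and the group mean (line, n = 2) in score-high and other kept cells of PBS and DEP mice, for the 9 genes called in either test, each panel on its own linear axis from 0. Cxcl10 and Isg15 are ordered oppositely in the 2 sets of cells, the DEP points of Dnajb1 and Retnla lie below the PBS points in both, and those of Cd63, Apoe and Zmynd15 do so in the score-high cells alone.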

How the data were processed

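The authors deposited a single table of UMI counts for 28692 genes in 6954 barcodes of 4 mice, made per the labels with Cell Ranger, STAR 2.6.1a and the mm10 genome, and per the study's methods aggregated without equalising depth, with at most 1 alignment of a read reported by STAR. Those methods match this table in tissue, sort, chemistry, exposure and group sizes, but name another series for the data and state far fewer cells after similar filters than the 4543 kept here (those methods also removed cells without mitochondrial UMIs and set no immunoglobulin limit). The reason was not tested. Only reads from 3' ends were counted. The values are whole-number counts, not normalized, and the suffix of each barcode named the mouse. Gene names and positions were taken from GENCODE M21 (28416 identifiers matched). Clec7a was not analysed here. No column of per-sample values was left unused (0).

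Barcodes were filtered, scored and divided as the report describes. The members and gene lists were chosen with earlier results of these data known. Counts were summed per mouse over the score-high and over the other kept cells, which together held 3957239 to 9766647 UMIs a mouse. A gene entered a fit if it exceeded 1 CPM in at least 2 sums and 5% of the cells had a UMI for it. Fits used edgeR 4.0.16 (R 4.3.3, TMM, quasi-likelihood F test, 5% FDR after Benjamini-Hochberg). The interaction used 8 sums with the mouse as a block. SE is the fold change divided by the square root of F. The share was compared over mice by an exact permutation test. Ratios of score-high over other kept cells used genes with UMIs in at least 10% of either set.

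Genes were named if they were label markers or score genes, were among the 25 highest or 15 lowest ratios with the same sign in each mouse, were among the 5 of smallest p per direction in a test, or were the extremes or defining markers of a list. Alternatives were DESeq2 1.42.0, limma 3.58.1 (voom), other scalings, gene filters, cell filters, score limits and leaving out each mouse. Doublets were called per mouse with Scrublet in scanpy 1.11.5 and left in except in that alternative. Scripts were tested on simulated data. Intervals and the limit of 3 UMIs for a count of 0 cover counting error only.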

Additional observations from a re-analysis of the deposited data

Results flagged for a closer look

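For 8 genes the effect of DEP differed between the score-high cells and the other kept cells by the interaction test (edgeR quasi-likelihood, Benjamini-Hochberg adjusted p below 0.05). The difference of the log2 effects was 2.01 for Cxcl10, 1.96 for Cxcl9, 1.24 for Isg15 and 0.93 for Ccl7, and -2.88 for Retnla, -1.33 for Zmynd15, -0.71 for Cd63 and -0.37 for Apoe. In the score-high cells the UMIs of Retnla, Cxcl9 and Cxcl10 were concentrated, with single cells holding 95 of 114 Retnla UMIs in PBS 3, 21 of 23 Cxcl9 UMIs in DEP 13 and 36 of 46 Cxcl10 UMIs in DEP 13. Leaving out DEP 11 ended the calls of Cd63 (-0.63), Apoe (-0.25), Isg15 (0.81) and Retnla (-1.99), leaving out PBS 2 that of Zmynd15 (-1.06) and leaving out PBS 3 that of Cxcl9 (1.48). The mouse left alone in its group was then assumed to vary like the other group.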

How the results depend on the processing

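The share of score-high cells was higher upon DEP under all 12 alternatives, by 0.147 to 2.002 percentage points. Leaving out a mouse could not change the sign, because both DEP shares lay above both PBS shares. After thinning, which gave the smallest difference, the groups overlapped. Within score-high cells the 3 calls became 8 with the top 5% of barcodes (Cxcl9 no longer among them), 7 with the top 20%, 5 with at most 5% mitochondrial UMIs, 7 after thinning to 1000 UMIs, 5 without Klrd1 in the score, 8 with edgeR's likelihood ratio test, 5 with limma voom, 5 with RLE scaling, 19 without a gene filter, and 8 without DEP 11, 7 without DEP 13, 35 without PBS 2 and 25 without PBS 3. The 8 interaction calls became 1 with the top 5%, 4 with the top 20%, 0 after thinning (320 genes had an unadjusted p below 0.05), 14 with the top 10% taken within each mouse, 1 with DESeq2, 5 with limma voom, 27 without a gene filter, and 13 without DEP 11, 24 without DEP 13, 12 without PBS 2 and 25 without PBS 3. Among alternatives chosen after seeing the data, leaving out each gene's leading cell gave 1 and 4 calls, and summing Cd209a cells only gave 0 and 2 (194 and 290 genes had an unadjusted edgeR p below 0.05). A mouse left alone in its group was assumed to vary like the other group. The cause of these changes was not tested.

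Changes of sign were found mainly among genes that missed the threshold. Within score-high cells, thinning turned Cxcl10 to -0.18, Ccl7 to -0.63, Isg15 to -0.22, Cd63 to 0.13 and Olfm1 to 0.0773, and it turned the interaction of Ccl7 to -0.11 and of Cd63 to 0.042. Ccl7 was also at -0.40 with the top 5%, -0.15 with the top 20%, -0.27 without Klrd1 in the score and -0.14 in Cd209a cells. Isg15 was at -0.026 with the top 20% and Cd209a at -0.029 without its leading cell. With a mouse left out, Ccl7 ranged from -0.056 (without DEP 13) to 0.74 and Klrd1 from -0.44 (without PBS 2) to 1.60. Olfm1 was at 0.016 with the top 5%, 0.020 with at least 2000 UMIs, 0.12 without Klrd1 in the score, 0.50 in Cd209a cells, 0.054 in cells with Cd209a or Clec10a, 0.22 without DEP 11 and 0.17 without PBS 3. No paired analysis was possible because the DEP and PBS mice share no replicate number. The depth of single cells limits membership itself, since 57 cells entered on 1 UMI.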
